A study of Mus musculus with 71 samples.

Results

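The 7 genes described here encode the endogenous opioid peptide precursors and their receptors, and their rows were taken by gene symbol. They are the precursors Penk, Pdyn and Pnoc and the receptors Oprm1, Oprd1, Oprk1 and Oprl1, chosen with earlier results of these data known. All 7 were found among the 37681 genes of each of 6 tables, which cover nucleus accumbens (NAc), ventral tegmental area (VTA) and prefrontal cortex (PFC) 1 day or 28 days after the last session. The tissue came from wild type C57BL/6 mice (C57BL/6J per the study's methods) that had self-administered either cocaine or saline through a jugular catheter. By the same source they were adults of both sexes, first trained to work for food, so saline mice shared the surgery, the food training and the wheel sessions. RNA of tissue punches was sequenced in 71 libraries, 6 in each of 11 groups and 5 in the saline VTA group at 28 days. The labels do not say whether libraries of different regions came from the same mouse, nor that a library is 1 mouse, so p-values measure the spread between these libraries.

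Opioid peptides are cut out of larger precursor proteins by prohormone convertases at pairs of basic residues and are released from dense-core vesicles. Their receptors couple to inhibitory G proteins, which lower cyclic AMP, open inwardly rectifying potassium channels and reduce transmitter release. In the striatum, Penk marks the indirect pathway neurons that carry the dopamine receptor Drd2, and Pdyn marks the direct pathway neurons that carry Drd1, and kappa receptors on dopamine axons restrain dopamine release.

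Penk, the source of the enkephalins, lies at chr4:4060678-4065966 on the minus strand of mm9. Its 268 codons spell 6 copies of methionine-enkephalin and 1 of leucine-enkephalin, of which copies 1, 2, 4, 6 and 7 are shown, all exonic. They are shown because a read on Penk stands for a precursor of 7 enkephalins, of which 5 have pairs of basic codons on both sides. Capitals mark the peptide and lower case the flanking codons.
Penk copy 1 (chr4:4061481-4061495): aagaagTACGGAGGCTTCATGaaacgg
Penk copy 2 (chr4:4061460-4061474): aaacggTACGGAGGCTTCATGaagaag
Penk copy 4, with no basic pair after it (chr4:4061220-4061234): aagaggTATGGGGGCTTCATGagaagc
Penk copy 6, leucine-enkephalin (chr4:4061088-4061102): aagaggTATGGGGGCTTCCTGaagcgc
Penk copy 7, with no basic pair after it (chr4:4060995-4061009): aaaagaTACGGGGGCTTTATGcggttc

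Pdyn, the source of the dynorphins and neoendorphin, lies at chr2:129512301-129525580 on the minus strand, and its 248 codons hold 3 leucine-enkephalin cores, each of which opens a longer kappa receptor peptide. Pnoc, the source of nociceptin, lies at chr14:66019510-66044046 on the minus strand and holds 1 nociceptin in its 187 codons. The stretches are shown so that the core common to enkephalins and dynorphins can be set beside nociceptin, whose first codon is not a tyrosine codon.
Pdyn core 1 (chr2:129513974-129513988): aaacgcTATGGCGGCTTTTTGcgcaaa
Pdyn core 2 (chr2:129513866-129513880): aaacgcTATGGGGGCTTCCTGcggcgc
Pdyn core 3 (chr2:129513809-129513823): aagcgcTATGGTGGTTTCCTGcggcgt
Pnoc nociceptin (chr14:66023679-66023729): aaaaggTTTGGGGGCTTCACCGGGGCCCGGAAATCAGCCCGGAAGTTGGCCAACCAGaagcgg

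Of the receptors, Oprm1, the mu receptor for enkephalins, beta-endorphin and morphine, lies at chr10:3308332-3588035 on the minus strand. Oprd1, the delta receptor for enkephalins, lies at chr4:131666641-131700401 on the minus strand. Oprk1, the kappa receptor for dynorphins, lies at chr1:5578574-5596212 on the plus strand. Oprl1, the nociceptin receptor, which does not bind classical opioids, lies at chr2:181449721-181455690 on the plus strand. Exons of Penk share 233 bases, 14.26% of its exonic length, with the noncoding gene A830012C17Rik on the opposite strand. Exons of Oprm1 share 96 bases, 1.18%, with Ipcef1, also on the opposite strand. Whether counting used strand is not given in the sources used here, so reads in those stretches may belong to either gene.

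The libraries held 20971967 to 49700932 reads on genes, and the fewest reads on any member in any library were 14, on Pnoc in NAc. Levels are given as RPKM, read counts scaled to exon length and to the library's total on genes, so that genes of different length can be compared. Most punches carried the markers of their region. Drd1a stood at 56.59 to 111.7 RPKM in NAc and at 0.5498 to 1.236 in VTA, and the dopamine transporter Slc6a3 stood at 89.84 to 705.5 RPKM in VTA and at no more than 2.134 elsewhere. The cortical transporter gene Slc17a7 stood at 337.8 to 647.1 RPKM in PFC, but ranged from 1.977 to 245.0 among NAc libraries and from 1.086 to 74.81 among VTA libraries. Some VTA libraries held hypothalamic markers, whose sum reached 1354 RPKM in saline VTA at 28 days against a group median of 5.627. In cocaine VTA at 28 days the sum reached 690.2 RPKM with a higher median, 61.05. At 1 day it reached 597.1 RPKM in cocaine VTA (median 4.954) and 8.025 in saline VTA (median 4.429). Of the PFC libraries, 1 stood out for markers of another region. In saline PFC library 4 at 28 days, 9 of 9 striatal medium spiny neuron markers, 5 of 6 direct pathway and 4 of 4 indirect pathway markers were above all 11 other PFC libraries of that day, and 9 of 10 cortical markers were below them. Its Drd2 was 45.91 RPKM and its Ppp1r1b, the striatal phosphoprotein DARPP-32, was 459.6, while Slc17a7 was still 392.1. Region and cocaine values of Penk, Pdyn and Oprk1 that it moved are given with and without it. Library numbers at 28 days are those of the table columns, which name a group but no single sample of the labels.

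Penk was the most abundant of the 7 in every region, above 99.9% of genes with reads in saline NAc. In saline NAc at 1 day it ranged from 792.5 through a median of 999.2 to 1151.0 RPKM, in VTA from 38.79 through 61.39 to 75.96, and in PFC from 18.36 through 21.66 to 27.1. The 3 regions did not overlap. Penk was 4.13 ± 0.155 (SE, n = 6 and 6) log2 units higher in NAc than in VTA (adjusted p = 1.47e-14, limma over all genes) and 5.43 ± 0.155 higher than in PFC (adjusted p = 1.45e-15). At 28 days saline NAc ranged from 822.3 through 1070.0 to 1291.0 RPKM, and the 5 saline VTA libraries stood at 82.45, 26.27, 59.81, 71.04 and 28.79. Saline PFC at 28 days ranged from 14.22 through 22.76 to 491.0 RPKM, the highest being library 4 and the next 32.16. NAc exceeded VTA by 4.46 ± 0.902 on the log2 scale (adjusted p = 0.000328, edgeR) and PFC by 3.40 ± 0.792 (adjusted p = 0.00213), and without saline PFC library 4 the latter was 5.59 (adjusted p = 1.059e-09). The VTA against PFC difference, 1.30 ± 0.155 at 1 day (adjusted p = 4.44e-07), was -1.07 ± 0.777 at 28 days (adjusted p = 0.251). Without PFC library 4 it was 1.10 (adjusted p = 0.002968).

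Pdyn had the largest ratio of NAc to VTA of the 7. In saline mice at 1 day it ranged from 104.3 through 123.9 to 155.5 RPKM in NAc, from 8.438 through 9.887 to 10.67 in PFC and from 1.834 through 2.067 to 2.181 in VTA. No region overlapped another. Among 14844 genes compared between NAc and VTA at 1 day, Pdyn had the smallest p, with a log2 ratio of 5.88 ± 0.0863 (adjusted p = 3.72e-20, limma), and it was 3.66 ± 0.0863 higher in NAc than in PFC. At 28 days the order was the same, NAc at 107.2 through 128.6 to 137.8 RPKM and PFC at 10.4 through 11.29 to 65.15, the highest being library 4 and the next 12.37. The 5 VTA libraries stood at 9.891, 1.889, 1.792, 1.594 and 0.3918. The log2 ratio of NAc to VTA was 5.48 ± 0.733 (adjusted p = 4.04e-06, edgeR) and that of NAc to PFC 2.60 ± 0.585 (adjusted p = 0.00158). The first was 6.59 without saline VTA library 1, and the second 3.48 without saline PFC library 4 (adjusted p = 2.017e-05).

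Pnoc had the reverse order, highest in VTA. In saline mice at 1 day it ranged from 2.627 through 5.027 to 7.789 RPKM in VTA, from 1.532 through 2.02 to 2.472 in PFC and from 0.8662 through 1.095 to 1.546 in NAc, and PFC and NAc overlapped by a narrow margin. Its log2 ratio of NAc to VTA was negative at 1 day (-1.99 ± 0.227, adjusted p = 2.28e-07) and also lower at 28 days (-2.76 ± 0.314, adjusted p = 5.96e-07). At 28 days the 5 saline VTA libraries stood at 10.93, 5.202, 11.1, 9.882 and 3.41 RPKM, PFC ranged from 2.269 through 3.199 to 3.535 and NAc from 0.6399 through 0.9862 to 2.252. The lowest VTA library fell within the PFC range, and NAc lay below both regions. The log2 ratio of NAc to PFC was -0.75 ± 0.227 at 1 day (adjusted p = 0.0112) and -1.54 ± 0.301 at 28 days (adjusted p = 0.000471).

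Among the receptors, Oprl1 was the most abundant in each region and, like its ligand gene Pnoc, highest in VTA. In saline mice at 1 day it ranged from 34.28 through 38.11 to 40.48 RPKM in VTA, from 18.85 through 20.36 to 22.09 in PFC and from 17.43 through 18.99 to 21.98 in NAc. VTA stood apart, and PFC and NAc overlapped. The log2 ratio of NAc to VTA was -0.96 ± 0.0624 at 1 day (adjusted p = 7.08e-11) and -1.06 ± 0.128 at 28 days (adjusted p = 1.23e-06). At 28 days the 5 VTA libraries stood at 43.35, 34.52, 34.0, 32.51 and 24.47 RPKM, PFC ranged from 15.79 through 17.55 to 20.81 and NAc from 12.17 through 13.86 to 20.74, again with VTA apart. NAc and PFC were not called different at 1 day (-0.07 ± 0.0624, adjusted p = 0.382) or at 28 days (-0.29 ± 0.123, adjusted p = 0.069).

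Oprk1 was highest in NAc and lowest in PFC. At 1 day saline NAc ranged from 12.82 through 14.11 to 15.33 RPKM, VTA from 4.365 through 10.88 to 14.6 and PFC from 2.108 through 2.708 to 3.485. NAc and VTA overlapped, and PFC lay below both. At 28 days NAc ranged from 6.821 through 10.56 to 11.75 RPKM and PFC from 1.363 through 1.579 to 4.473, and the 5 VTA libraries stood at 5.578, 12.01, 7.68, 4.088 and 2.419, so that VTA overlapped both. The overlap with PFC rested on saline PFC library 4, since the next PFC value was 1.673. NAc exceeded PFC by 2.33 ± 0.198 on the log2 scale at 1 day (adjusted p = 1.1e-08) and by 2.30 ± 0.356 at 28 days (adjusted p = 5.12e-05), or 2.72 without that library. NAc exceeded VTA by 0.58 ± 0.198 at 1 day (adjusted p = 0.0151), while the 0.78 ± 0.358 at 28 days did not pass (adjusted p = 0.065). Without 1 library at a time that p ranged from 0.007389 to 0.1624, and it fell under 0.05 without saline NAc library 1, saline VTA library 2 or saline PFC library 4.

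Oprd1 was about equal in NAc and PFC and low in VTA. At 1 day saline PFC ranged from 5.972 through 6.665 to 7.602 RPKM, NAc from 5.653 through 6.607 to 6.983 and VTA from 0.6189 through 1.348 to 2.754. NAc and PFC overlapped and VTA lay below both. At 28 days NAc ranged from 5.466 through 7.196 to 8.611 RPKM and PFC from 6.774 through 6.794 to 7.605, and the highest VTA library, at 4.729, stayed below them. The log2 ratio of NAc to PFC was -0.05 at 1 day (interval of 2 SE each side -0.45 to 0.35) and 0.01 at 28 days (-0.48 to 0.51). NAc exceeded VTA by 2.19 ± 0.202 at 1 day (adjusted p = 1.18e-08) and by 1.64 ± 0.274 at 28 days (adjusted p = 4.85e-05).

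Oprm1 had the lowest level of the receptors in NAc and PFC. At 1 day saline NAc ranged from 2.296 through 3.18 to 3.706 RPKM, VTA from 2.092 through 2.546 to 3.36 and PFC from 0.456 through 0.6015 to 0.8617. NAc and VTA overlapped, with a log2 ratio of 0.21 (interval 2 SE each side -0.08 to 0.50), and at 28 days of 0.22 (-0.35 to 0.79). At 28 days NAc ranged from 1.494 through 2.05 to 2.409 RPKM and PFC from 0.4218 through 0.5536 to 0.9504, and the 5 VTA libraries stood at 0.7459, 1.843, 2.996, 2.442 and 1.479, the lowest of them within the PFC range. NAc exceeded PFC by 2.10 ± 0.143 at 1 day (adjusted p = 4.37e-10) and by 1.65 ± 0.283 at 28 days (adjusted p = 0.000145).

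In counts, 6 of 7 members differed between NAc and VTA at 1 day and 5 at 28 days, where 66.9% and 62.5% of all genes tested were called. Between NAc and PFC 5 of 7 differed on each day, against 42.3% and 40.7% of all genes. Between VTA and PFC 7 differed at 1 day and 6 at 28 days, against 65.8% and 57.8% of all genes. Being called was common among all genes. Regions stand in separate tables, so region and table cannot be told apart, and a lower level in bulk tissue cannot separate fewer cells from less RNA per cell. The plot of levels by region shows all 71 libraries.

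**Figure D1:**
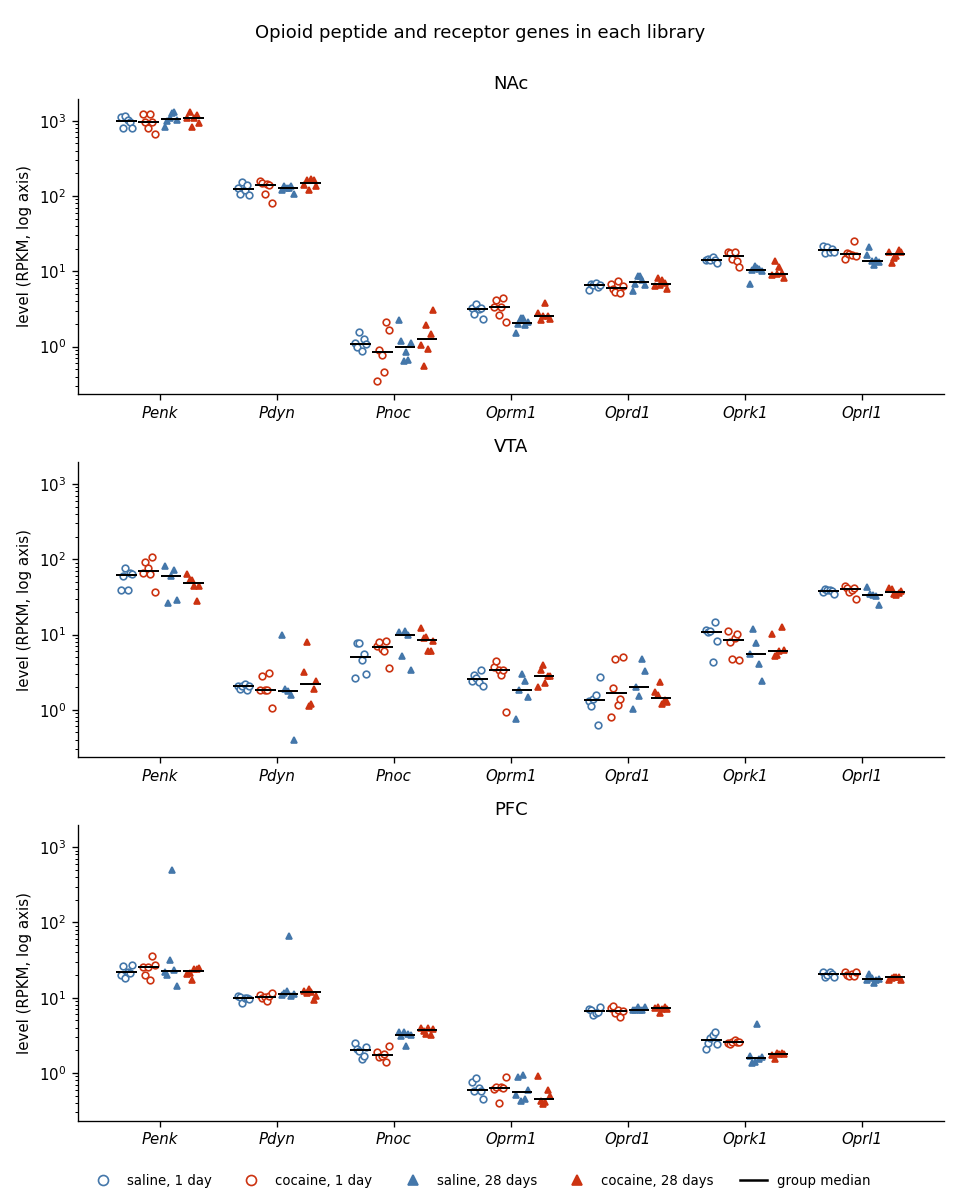
RPKM of the 7 genes in each library (points, log axis), by region, day and treatment, with a line at each group median. Penk and Pdyn stood highest in NAc and Pnoc and Oprl1 highest in VTA, and Penk of saline PFC library 4 at 28 days, at 491.0 RPKM, stood far above the other PFC libraries.

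The genes that handle these peptides and their receptors were compared between regions of saline mice in the same way. Of 7 peptide processing genes, 1 was higher and 5 were lower in NAc than in VTA at 1 day, and 1 was higher and 3 lower at 28 days, where 66.9% and 62.5% of all genes were called. At 28 days the prohormone convertase genes went opposite ways, Pcsk1 at -2.06 ± 0.208 (adjusted p = 1.39e-07) and Pcsk2 at 1.13 ± 0.145 (adjusted p = 2.5e-06, edgeR). Of 8 peptide breakdown genes, 6 were higher and 0 lower in VTA than in PFC at 1 day, and 5 higher and 0 lower at 28 days, where 65.8% and 57.8% of all genes were called. Among them Ece2, an endothelin-converting enzyme that cleaves opioid peptides, exceeded PFC by 2.21 ± 0.123 on the log2 scale at 28 days, and Mme, neprilysin, was 2.20 ± 0.297 higher in NAc than in PFC. Of 11 receptor desensitization genes, 0 were higher and 9 lower in VTA than in PFC at 28 days, with a median log2 ratio of -0.757 against 0.0216 over all genes. At 1 day 0 were higher and 6 lower, with a median of -0.531 against 0.118. The striatal regulator of G protein signalling Rgs9 exceeded VTA by 4.86 ± 0.612 in NAc at 28 days. Of 12 G protein and effector genes, 2 were higher and 7 lower in NAc than in PFC on each day, where 42.3% and 40.7% of all genes were called, and the potassium channel genes Kcnj3 and Kcnj9 were lower by -1.94 ± 0.163 and -1.87 ± 0.156 at 28 days. Pomc, the precursor of beta-endorphin, stood at no more than 0.6415 RPKM in any library at 1 day and at 0.7047 to 7.008 at 28 days. The days stand in separate tables, so day and table cannot be told apart for Pomc.

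Libraries of 1 region and group also differed among themselves, and several members followed or ran against markers of cell types. Over the 24 NAc libraries with group means taken off, Penk followed Ppp1r1b (r = 0.945), Drd1a (r = 0.906) and Drd2 (r = 0.904), and ran against Slc17a7 (r = -0.658). Pdyn followed Penk (r = 0.824), Drd2 (r = 0.783), Ppp1r1b (r = 0.748) and Drd1a (r = 0.714). Oprk1 followed Drd1a (r = 0.892) and Oprd1 (r = 0.785). Pnoc ran against Oprk1 (r = -0.864) and Drd1a (r = -0.847). With the marker genes compared, Oprl1 stayed between r = -0.402 (Drd1a) and r = 0.248 (the GABA neuron gene Gad2). These are correlations of log2 CPM (counts scaled to the library total) over libraries that share tables and differ in punch content, given as a description. The part of punch content in them was not tested.

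**Figure D2:**
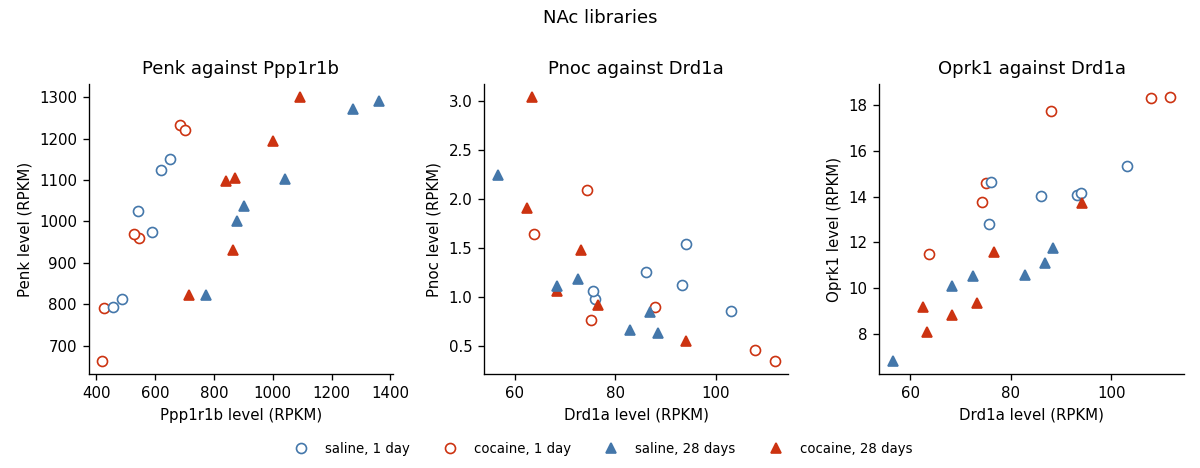
Levels (RPKM) of members against marker genes in the 24 NAc libraries, 1 point a library, by treatment and day. Within each day, libraries with more Ppp1r1b held more Penk, and those with more Drd1a held more Oprk1 and less Pnoc.

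The genes whose pattern was most like each member were found the same way. Over all 35 libraries at 28 days, where points cluster by region, the nearest were Itgb1bp1 and Necab2 for Penk (r = 0.983 each), Dok4 for Pdyn (r = 0.978) and Nap1l5 for Oprl1 (r = 0.982). Klhl13 was nearest to Oprk1 (r = 0.963), 6330527O06Rik to Oprd1 (r = 0.963), Camk2n2 to Pnoc (r = 0.959) and Abat to Oprm1 (r = 0.936). Within NAc, Itgb1bp1 was again nearest to Penk (r = 0.961), followed by Ppp1r7 and Pde1b, a striatal phosphodiesterase gene. Kcnq5, a potassium channel gene, was nearest to Oprk1 (r = 0.946), Gpr165 to Oprl1 (r = 0.930), Nsg2 to Pdyn (r = 0.923) and Fam40a to Pnoc (r = 0.921). Kcnk2 was nearest to Oprd1 (r = 0.918) and Dync2h1 to Oprm1 (r = 0.872).

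In VTA several members also followed or ran against markers of the cells in the punch. Over 23 libraries with group means taken off, Oprk1 followed Th (r = 0.853), tyrosine hydroxylase of dopamine neurons, and Oprd1 followed Slc17a7 (r = 0.785). Pdyn followed Hcrt (r = 0.662), the hypothalamic orexin gene, and Oprl1 (r = 0.841). Oprm1 ran against Pmch (r = -0.671), the lateral hypothalamic melanin-concentrating hormone gene. At 28 days the libraries with the most Hcrt, saline 1 at 747.3 and cocaine 2 at 208.0 RPKM, were those with the most Pdyn, 9.891 and 7.907. The other 9 held 0.3918 to 3.159 RPKM of Pdyn. The saline libraries with the most Slc17a7, library 4 at 74.81 and library 5 at 45.77 RPKM, had the most Oprd1, 4.729 and 3.278, and the least Oprk1, 4.088 and 2.419. Their Th, 143.7 and 141.7 RPKM, was also the lowest.

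**Figure D3:**
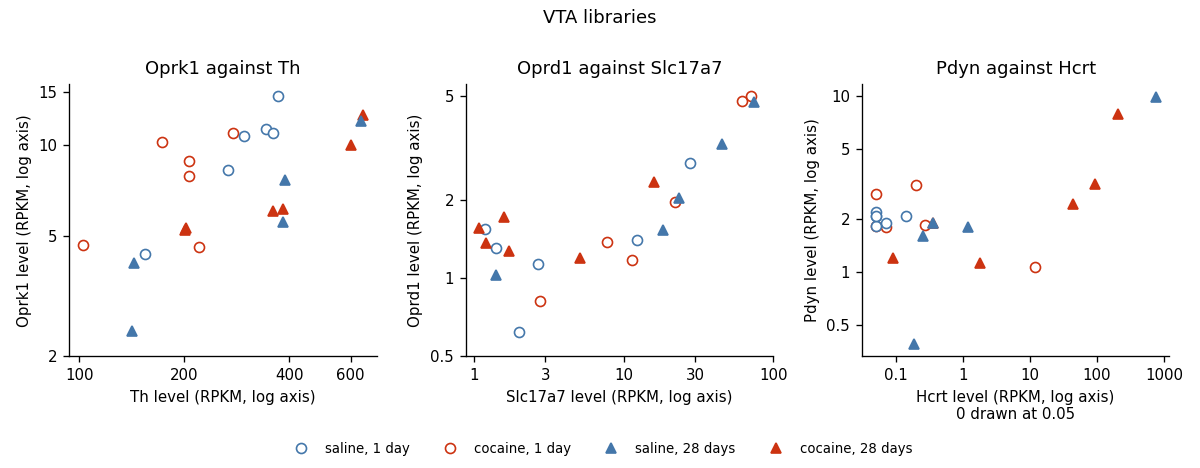
Members against marker genes in the 23 VTA libraries, 1 point a library, by treatment and day, on log axes in RPKM. Oprk1 was higher where Th was higher and Oprd1 where Slc17a7 was higher, and the highest Pdyn values lay at the highest Hcrt.

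The design compares cocaine with saline self-administration, here for these genes. Cocaine was compared with saline within each region and day, and 0 of 7 members passed at an adjusted p under 0.05 in any of the 6 comparisons. The same call was made for few of all genes tested, 0.0126% in NAc, 0.0665% in VTA and 0.00693% in PFC at 1 day, and 0% in each region at 28 days. DESeq2 on the count tables and edgeR on reads recovered from the RPKM tables also called 0 of 7. At 28 days DESeq2 gave no adjusted p for Penk and Pdyn in PFC and for Pnoc in NAc, so it did not judge these. At an unadjusted p under 0.05 the members numbered 0 in NAc, VTA and PFC at 1 day, where 4.01%, 15.7% and 3.78% of all genes passed. At 28 days they numbered 2 in NAc, 0 in VTA and 1 in PFC, where 6.76%, 11.5% and 5.66% of all genes passed.

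In NAc at 1 day the peptide precursors were close between groups. Penk ranged from 662.8 through 964.1 to 1232.0 RPKM after cocaine and from 792.5 through 999.2 to 1151.0 after saline, and Pdyn from 81.91 through 141.3 to 156.3 and from 104.3 through 123.9 to 155.5. Groups overlapped for both. The log2 fold change was 0.01 for Penk (interval of 2 SE each side -0.29 to 0.30) and 0.06 for Pdyn (-0.22 to 0.34). Pnoc, with 14 to 90 reads per library, was less precise, at -0.12 (-0.80 to 0.56).

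All 7 members of NAc at 1 day had a larger SD among cocaine than among saline libraries. So did Drd1a (19.4 against 10.9 RPKM), Drd2, Ppp1r1b, Slc17a7 and Gad2. The somatostatin gene Sst (10.2 against 22.6 RPKM), Th (0.939 against 1.37), Slc6a3, Pomc, Hcrt, Pmch and the choroid plexus gene Ttr had a smaller one. The share of all genes with a larger SD after cocaine was not counted, and the difference in SD was not tested. Oprk1 ranged from 11.48 through 16.16 to 18.33 RPKM after cocaine and from 12.82 through 14.11 to 15.33 after saline, with 3 cocaine libraries above and 1 below the saline range. Its log2 fold change was 0.16 ± 0.11 (adjusted p = 1, edgeR). Oprl1 ranged from 14.7 through 16.77 to 25.51 after cocaine and from 17.43 through 18.99 to 21.98 after saline. Of the cocaine libraries 5 lay below the saline range and library 5 lay above it, and the log2 fold change was -0.11 ± 0.0998. Oprm1 was at 0.14 ± 0.157 and Oprd1 at -0.06 ± 0.104, each with overlapping groups.

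In NAc at 28 days Pdyn and Oprm1 had the smallest p-values of the 7. Pdyn ranged from 121.0 through 151.4 to 166.9 RPKM after cocaine and from 107.2 through 128.6 to 137.8 after saline. Of the 6 cocaine libraries 4 lay above the saline range and 2 within it. The log2 fold change was 0.22 ± 0.0871 (adjusted p = 0.69, edgeR). Oprm1 ranged from 2.276 through 2.553 to 3.822 RPKM after cocaine and from 1.494 through 2.05 to 2.409 after saline, with 4 cocaine libraries above the saline range and all 6 above the saline median. Its log2 fold change was 0.39 ± 0.146 (adjusted p = 0.672, edgeR), and by p it stood 448th of 16295 genes. Leaving out 1 library at a time, Pdyn stayed between 0.18 and 0.27 and Oprm1 between 0.26 and 0.44, and the lowest adjusted p was 0.4914 for Oprm1.

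Of the 10 cortical markers 0 passed between the same NAc groups, adjusted or unadjusted, and their median log2 fold change was -0.458 against 0.00454 over all genes. Their summed level ranged from 12.99 through 38.38 to 237.3 RPKM after cocaine and from 29.72 through 78.45 to 206.4 after saline, which overlap. At an unadjusted p under 0.05, 2 of 8 GABA interneuron markers were higher and 2 of 6 oligodendrocyte markers lower after cocaine. Of 9 striatal medium spiny neuron markers 1 was lower and 0 higher at that threshold, with a median log2 fold change of -0.138. Of 6 direct pathway markers 1 was higher and 0 lower, with a median of -0.0183. The mean log2 level of the cortical markers was then used as a covariate. With this covariate Pdyn was at 0.11 ± 0.0507 (adjusted p = 0.463), Oprm1 at 0.29 ± 0.139 (adjusted p = 0.498) and Pnoc at 0.71 ± 0.268 (adjusted p = 0.382, edgeR). Without it Pnoc was at 0.44 ± 0.371, with groups of 0.5534 through 1.272 to 3.042 RPKM after cocaine and 0.6399 through 0.9862 to 2.252 after saline. Penk (-0.03 ± 0.128), Oprk1 (-0.01 ± 0.146), Oprd1 (-0.07 ± 0.12) and Oprl1 (0.12 ± 0.114) had overlapping groups in NAc at 28 days.

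In VTA at 1 day the groups overlapped for all 7 members. Penk ranged from 36.64 through 70.59 to 105.9 RPKM after cocaine and from 38.79 through 61.39 to 75.96 after saline, a log2 difference of 0.33 ± 0.239 (adjusted p = 0.553, limma). Oprm1 ranged from 0.9206 through 3.388 to 4.495 after cocaine and from 2.092 through 2.546 to 3.36 after saline. Of the cocaine libraries 4 lay above the saline range, and the lowest, library 6, was also that with the most Pmch, 582.0 RPKM, and Ttr, a choroid plexus transport gene, at 140.4. The log2 difference was 0.12 ± 0.294. Oprd1 ranged from 0.8114 through 1.662 to 5.004 after cocaine and from 0.6189 through 1.348 to 2.754 after saline, a difference of 0.55 ± 0.441. Its highest values were in cocaine libraries 3 and 6 and saline library 6, which also had the most Slc17a7 (61.67, 70.47 and 27.69 RPKM).

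Oprk1 in VTA at 1 day ranged from 4.605 through 8.42 to 10.99 RPKM after cocaine and from 4.365 through 10.88 to 14.6 after saline, with a log2 difference of -0.34 ± 0.291. The summed dopamine neuron markers were lower in the same direction, 657.1 through 1206 to 1553 RPKM after cocaine and 1091 through 1956 to 2494 after saline. With these markers as a covariate Oprk1 was at 0.25 ± 0.218 and Oprd1 at -0.03 ± 0.475. Without the 3 Slc17a7-rich libraries Oprd1 was at 0.13 ± 0.281 and Oprk1 at -0.04 ± 0.285. In that fit Penk was at 0.56 ± 0.225 (adjusted p = 0.343) and Oprm1 at 0.38 ± 0.143 (adjusted p = 0.31, limma), where 12.9% of all genes passed at an unadjusted p under 0.05. Pnoc (0.40 ± 0.282), Oprl1 (0.02 ± 0.0859) and Pdyn (-0.04 ± 0.2) did not pass with all libraries.

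In VTA at 28 days the receptors Oprd1 and Oprm1 lay farthest from 0, in opposite directions. Oprd1 ranged from 1.197 through 1.454 to 2.339 RPKM in the 6 cocaine libraries and stood at 1.029, 2.033, 1.528, 4.729 and 3.278 in the 5 saline libraries. Only saline libraries 4 and 5 exceeded the cocaine range. The log2 fold change was -0.68 ± 0.335 (adjusted p = 0.45, edgeR). Without those libraries, the Slc17a7-rich ones, it was 0.03 ± 0.252, and without the Hcrt-rich libraries saline 1 and cocaine 2 it was -0.87 ± 0.319 (adjusted p = 0.264). Oprm1 ranged from 2.024 through 2.8 to 3.924 after cocaine and stood at 0.7459, 1.843, 2.996, 2.442 and 1.479 after saline. All 6 cocaine libraries were above the saline median and 2 above its range, and the log2 fold change was 0.58 ± 0.294 (adjusted p = 0.458, edgeR). It was 0.34 ± 0.235 without the Hcrt-rich libraries, 0.60 ± 0.356 without the Slc17a7-rich libraries and 0.61 ± 0.299 with the dopamine markers as a covariate. With all libraries the median of Hcrt was 22.55 RPKM after cocaine and 0.3599 after saline. The saline median of Slc17a7, 23.61 RPKM, lay above the highest cocaine value, 15.88. The saline library at that median was kept in the fit without libraries 4 and 5, so that fit did not even out this marker.

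The remaining members of VTA at 28 days had wide, overlapping groups. Pdyn ranged from 1.122 through 2.168 to 7.907 RPKM after cocaine and from 0.3918 through 1.792 to 9.891 after saline, and its log2 fold change of -0.09 had an interval of -1.52 to 1.34. Leaving out saline library 1 turned it to 1.06, the highest of the fits without 1 library. Penk was at -0.18 ± 0.298, Pnoc at 0.05 ± 0.296, Oprk1 at 0.25 ± 0.377 and Oprl1 at 0.12 ± 0.122. Oprk1 ranged from 5.239 through 6.103 to 12.61 RPKM after cocaine and stood at 5.578, 12.01, 7.68, 4.088 and 2.419 after saline, and without the Slc17a7-rich saline libraries its value was -0.16 ± 0.327.

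In PFC at 1 day every member had overlapping groups. Pdyn ranged from 9.047 through 10.38 to 11.38 RPKM after cocaine and from 8.438 through 9.887 to 10.67 after saline, a log2 difference of 0.07 ± 0.0671. Penk was at 0.14 ± 0.148, Pnoc at -0.14 ± 0.13, Oprk1 at -0.09 ± 0.108 and Oprm1 at -0.02 ± 0.175. Oprd1 was at 0.0024 with an interval of -0.16 to 0.16, and Oprl1 at 0.01 with an interval of -0.09 to 0.12.

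In PFC at 28 days 1 library decided the values of Penk and Pdyn. Penk ranged from 17.11 through 22.79 to 24.76 RPKM after cocaine and from 14.22 through 22.76 to 491.0 after saline. The medians were alike, and the highest saline value was that of library 4, with the striatal markers. The log2 fold change of Penk was -2.20 ± 0.804 (adjusted p = 0.842, edgeR) with that library and -0.01 ± 0.156 without it (adjusted p = 0.997). Pdyn ranged from 9.303 through 11.8 to 13.01 after cocaine and from 10.4 through 11.29 to 65.15 after saline. Its log2 fold change was -0.82 ± 0.425 with library 4 and 0.04 ± 0.0774 without it.

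Oprk1 in PFC at 28 days ranged from 1.529 through 1.78 to 1.87 RPKM after cocaine and from 1.363 through 1.579 to 4.473 after saline, the highest again in library 4. The log2 fold change was -0.19 ± 0.255 with it and 0.22 ± 0.0804 without it (adjusted p = 0.967, edgeR), where 4.59% of all genes passed unadjusted. Pnoc ranged from 3.164 through 3.688 to 3.924 after cocaine and from 2.269 through 3.199 to 3.535 after saline, with 4 cocaine libraries above the saline range. It was at 0.21 ± 0.103 with library 4 (adjusted p = 0.842) and 0.14 ± 0.0835 without it (edgeR). Oprm1 (-0.27 ± 0.253), Oprd1 (0.03 ± 0.0563) and Oprl1 (0.04 ± 0.0577) had overlapping groups.

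**Figure D4:**
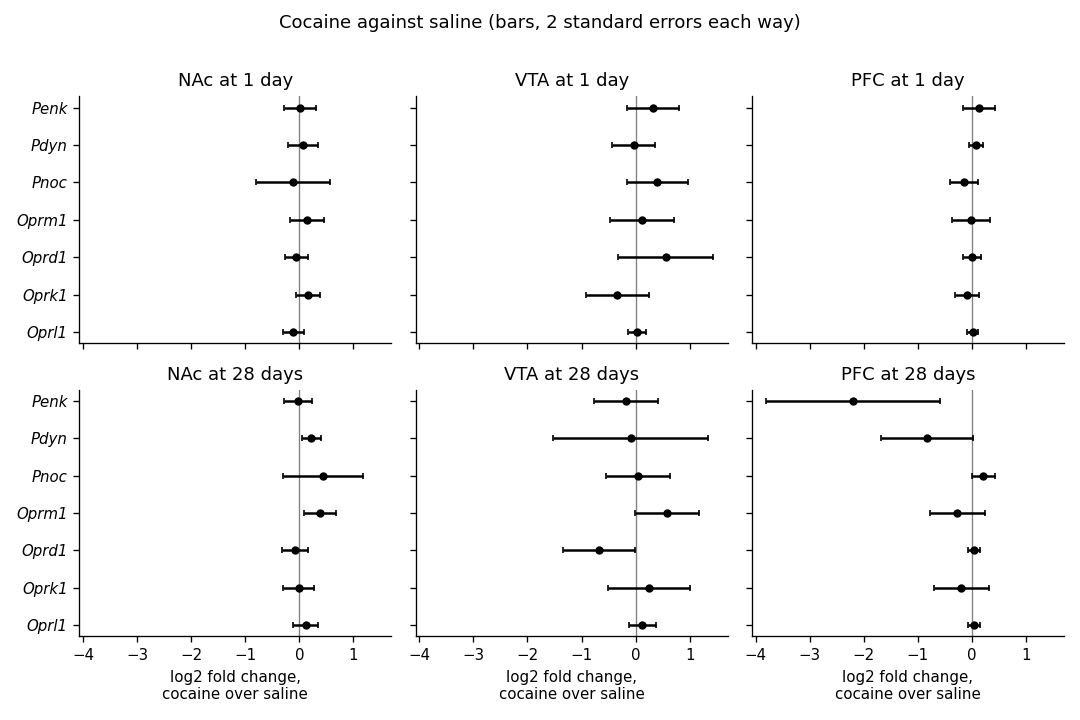
Log2 fold change of cocaine against saline for each member in each region and day, with bars of 2 standard errors each side. All 7 had an adjusted p above 0.05 in all 6 comparisons, and Penk in PFC at 28 days lay at -2.20 with saline library 4 included.

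**Figure D5:**
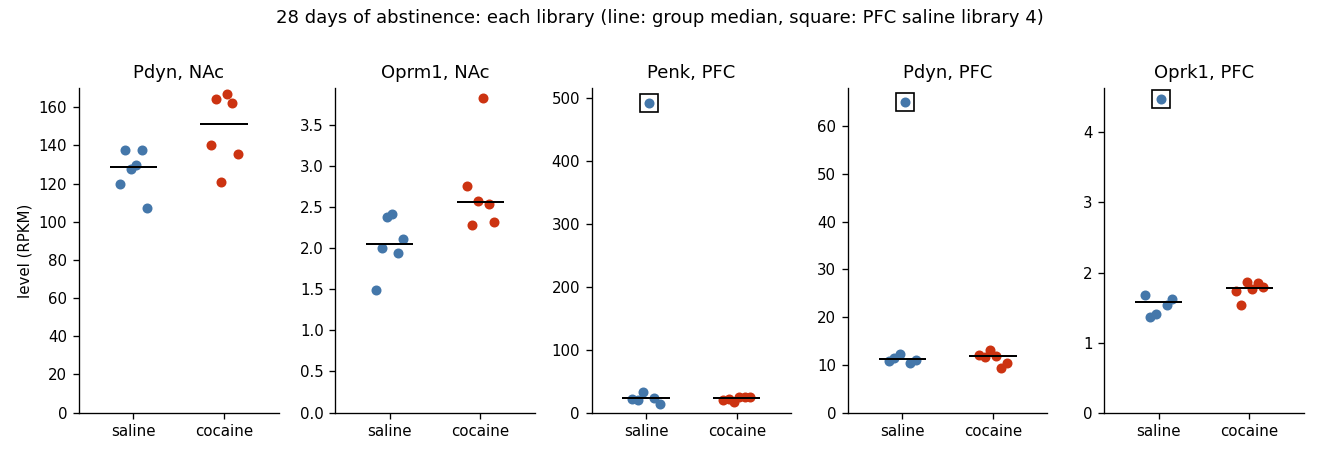
RPKM of members in single libraries at 28 days, cocaine beside saline, with a line at each group median. Most cocaine values of Pdyn and Oprm1 in NAc lay above the saline median, and saline PFC library 4, in a square, stood apart for Penk, Pdyn and Oprk1.

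Whether the cocaine difference itself changed between 1 day and 28 days was tested as an interaction. It was called for 0 of 7 members in each region, against 0.0181% of all genes in NAc, 0% in VTA and 0.0137% in PFC. At an unadjusted p under 0.05 it passed for Pnoc in PFC (0.35 ± 0.167, adjusted p = 0.999, limma), and for no other member, while 5.27%, 13.3% and 4.26% of all genes passed in NAc, VTA and PFC. Each difference rests on tables made separately for the 2 days, and without saline PFC library 4 at 28 days the Pnoc value was 0.26. Oprd1 in VTA was the largest receptor value, at -1.05 ± 0.587 (adjusted p = 0.434, limma). Without the Slc17a7-rich VTA libraries, the cocaine difference of Oprd1 was 0.13 at 1 day and 0.03 at 28 days. The interaction was not fitted again without them.

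The genes that process, degrade and transmit opioid peptides gave no call for cocaine either. In the 5 lists of peptide processing, peptide breakdown, G proteins and effectors, receptor desensitization and other opioid-related genes, 0 genes passed at an adjusted p under 0.05 in any comparison. In VTA at 1 day the smallest p-values were those of Grk5, a receptor kinase gene (0.44 ± 0.11, adjusted p = 0.112), and Kcnj9, a potassium channel subunit opened by these receptors (0.49 ± 0.126, adjusted p = 0.118, limma). In NAc they were Grk4 at 1 day (0.46 ± 0.143, adjusted p = 0.99) and Gnai1, an inhibitory G protein gene, at 28 days (0.20 ± 0.0581, adjusted p = 0.592). In VTA at 28 days all 11 desensitization genes had positive values, with a median of 0.0953 against -0.0297 over all genes. Of these 1, Rgs9, had an unadjusted p under 0.05 (0.45 ± 0.169, adjusted p = 0.401, edgeR), as did 11.5% of all genes. Positive values of this list numbered 3 of 11 at 1 day and 2 of 11 at 28 days in NAc. They numbered 6 of 10 in VTA at 1 day, and 2 of 11 at 1 day and 9 of 11 at 28 days in PFC. In VTA at 28 days Pcsk2 was at 0.34 ± 0.137 and Pomc at -0.90 ± 0.361 (adjusted p = 0.41 each, edgeR).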

How the data were processed

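The authors aligned RNA-seq reads to mm9 (STAR 2.4.1d, per the labels) and deposited raw read counts per gene for NAc at both days and for VTA and PFC at 28 days, and RPKM for VTA and PFC at 1 day. Depth was 20971967 to 49700932 reads per library. 30 columns that matched no sample were not used. Members and lists were chosen with earlier results of these data known. Count tables were tested with edgeR 4.0.16 (quasi-likelihood, TMM, filterByExpr with a minimum count of 10 and total of 15), RPKM tables with limma 3.58.1 on log2(RPKM + 0.1) keeping genes that averaged 0.5 RPKM or more, a scale that understates changes of low genes. P-values were adjusted by Benjamini-Hochberg over all genes tested, and the call was an adjusted p under 0.05. All 7 members passed the filters in every comparison. Whole reads (within 0.01 read) were recovered for 100.0% of genes with reads in the VTA and 99.996% in the PFC RPKM table, and gave gene lengths, from which RPKM of the count tables was computed. Regions at 1 day were compared by limma on RPKM, at 28 days by edgeR on counts joined over tables, and the interaction with time by limma on RPKM or edgeR where both tables held counts. Named genes were the members, up to 3 genes of each list with the smallest p, defining region genes and the 3 genes most correlated with a member, not all of them printed. The VTA correlations, the naming of Ppp1r1b, Hcrt, Pmch and Ttr, and fits without doubted libraries or with marker covariates were added after seeing the data. The tests were checked on simulated data. No pair of libraries in a group agreed within counting noise. Alternatives were DESeq2 1.42.0, other normalizations, filters and pseudocounts, recovered reads, cocaine libraries and each library left out.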

Additional observations from a re-analysis of the deposited data

Results flagged for a closer look

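In 84 sets of a gene and a group, 10 held a library whose gap to the next, as a share of the group's range, passed Dixon's 95% value (0.625 for 6 libraries, 0.71 for 5). Chance alone flags about 1 in 20 such groups, and 4 of the 10 came from a single library. That library, saline PFC 4 at 28 days, held Penk at 491.0 RPKM (next 32.16), Pdyn at 65.15 (next 12.37) and Oprk1 at 4.473 (next 1.673), and its Pnoc was low, at 2.269 (next 3.122). Its striatal medium spiny neuron markers summed to 1224 RPKM, against a saline PFC median of 178.9.

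In VTA at 28 days Pdyn was high in saline library 1, at 9.891 RPKM (next 1.889), and in cocaine library 2, at 7.907 (next 3.159). These libraries also had the most Hcrt, 747.3 and 208.0 RPKM. In saline NAc at 28 days, library 1 was high for Pnoc, at 2.252 (next 1.192), and low for Oprk1, at 6.821 (next 10.09), and it had the most Slc17a7 of the saline libraries, 161.2 RPKM. Cocaine NAc library 5 at 1 day was high for Oprl1, at 25.51 RPKM (next 17.42), and cocaine NAc library 4 at 28 days was high for Oprm1, at 3.822 (next 2.754). The part of tissue content in these values was not tested.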

How the results depend on the processing

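No count of members called moved by over 1.5 times under any alternative run. Of 522 single alternative values with no library left out, 502 kept direction and side of the threshold, 18 changed sign and 2 became called. Of 1976 with 1 library left out, 1888 kept both, 82 changed sign and 6 became called. DESeq2 gave no adjusted p for some fits of Pdyn, nor at 28 days for the cocaine values of Penk in PFC and Pnoc in NAc. These are not counted. The cause of each change was not tested.

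The replicate block was run at 1 day only, since the numbers of the 28-day columns are not those of the labels. With group means taken off, same-numbered cocaine and saline libraries correlated at -0.568 to 0.697 in NAc, -0.29 to 0.494 in VTA and -0.188 to 0.105 in PFC. These values cannot decide whether the numbers pair the libraries, since libraries also differ in punch content. With the block 0 members were called in each region, and Penk in NAc at 1 day went to -0.012.

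Values that changed sign were as follows. With edgeR on recovered reads, Oprl1 in VTA at 1 day was -0.012 (-0.020 with TMM factors), Oprm1 in PFC at 1 day 0.0052, the interaction of Pdyn in VTA -0.064 and that of Oprk1 in PFC -0.080. In cocaine libraries at 28 days, Penk was 0.98 for VTA against PFC (adjusted p = 1.516e-05, edgeR), Oprd1 -0.10 for NAc against PFC and Oprm1 -0.0049 for NAc against VTA, and Oprk1 (0.49, NAc against VTA) and Oprl1 (-0.21, NAc against PFC) were called. In fits added after seeing the data, VTA at 1 day without 3 Slc17a7-rich libraries gave Pdyn 0.20, and the dopamine marker covariate gave Oprd1 -0.029 and Oprk1 0.25. VTA at 28 days without the Hcrt-rich libraries gave Penk 0.012 and Pdyn 0.48, and without the Slc17a7-rich libraries Pnoc -0.12, Oprd1 0.027, Oprk1 -0.16 and Oprl1 -0.020.

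Leaving out 1 library moved the sign of small cocaine effects. In NAc at 1 day Penk ranged from -0.080 to 0.092, Pdyn from -0.0091 to 0.16, Pnoc from -0.40 to 0.048 and Oprd1 from -0.12 to 0.0029, and at 28 days Penk from -0.10 to 0.038 and Oprk1 from -0.13 to 0.051. In VTA at 1 day Pdyn ranged from -0.17 to 0.13, Oprm1 from -0.0072 to 0.43 and Oprl1 from -0.015 to 0.099, and at 28 days Penk from -0.34 to 0.042, Pdyn from -0.65 to 1.06 and Pnoc from -0.14 to 0.19. In PFC at 1 day Oprm1 ranged from -0.10 to 0.089, Oprd1 from -0.037 to 0.054 and Oprl1 from -0.0090 to 0.037, and at 28 days Oprk1 from -0.29 to 0.22 and Pdyn from -0.96 to 0.038. Between regions at 28 days, Oprd1 ranged from -0.030 to 0.094 for NAc against PFC and Penk from -1.30 to 1.10 for VTA against PFC. Interactions ranged from -0.10 to 0.053 for Penk and -0.085 to 0.057 for Oprd1 in NAc, from -0.17 to 0.91 for Pdyn in VTA, and from -0.031 to 0.059 for Oprd1, -0.038 to 0.29 for Oprk1 and -0.015 to 0.064 for Oprl1 in PFC.

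Depth limits Pnoc and Oprm1 most, with as few as 14 and 29 reads in a library, and groups of 5 or 6 limit every p.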

Other observations

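In PFC libraries with group means taken off, Penk followed Rasd2 (r = 0.978) and Pdyn followed the substance P gene Tac1 (r = 0.970). Saline PFC library 4 at 28 days is among these points and lies far from the rest. By rank, where 1 library weighs less, the correlations were 0.91 and 0.744. In VTA Oprk1 followed the sodium channel subunit gene Scn3b (r = 0.981), and Pnoc followed the somatostatin gene Sst (r = 0.803) and Penk (r = 0.801). These correlations were looked at after other results were seen and describe these libraries.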
